A study of Mus musculus with 6 samples.

Results

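The mitochondrial ribosome is described here through the genes of its protein subunits, taken as every gene in the deposited count table whose symbol is Mrpl or Mrps followed by a number and at most 1 letter. The rule found 78 of the 22377 genes in the table, 51 with products in the large subunit, 26 with products in the small subunit and Mrps36, whose product is now known as a subunit of the 2-oxoglutarate dehydrogenase complex. RNA was sequenced in 3 libraries labelled wt and 3 labelled ko, the ko libraries also carrying the treatment label knockdown. By the description of the experiment they came from Npm1+/+ and Npm1+/- mice that bore subcutaneous Lewis lung carcinoma tumors, a transplanted mouse lung cancer line, from which macrophages were sorted as CD45+ CD11b+ F4/80+ cells. The labels give neither genotype, strain nor age. The heterozygous deletion is carried by every cell of the animal, tumor-infiltrating cells of all kinds included, 1 intact Npm1 allele remains in each, and mice that lack both alleles die as embryos. The labels name tumor tissue, a TRIzol extraction and a small RNA library, whereas the methods name sorted cells, a column kit and a low-input cDNA kit; the accounts were not reconciled here. The labels do not tie libraries to animals. The caption of a heatmap in the study names fewer individual mice in a group than there are libraries here, so libraries of a group may share an animal. The p-values below then measure only the spread between libraries, which may be technical, and would be too small for a comparison of animals.

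Mitochondrial ribosomes translate the few messenger RNAs that mitochondrial DNA encodes, all of them for subunits of the respiratory chain and ATP synthase. Their ribosomal RNAs come from mitochondrial DNA, but their proteins are encoded in the nucleus, made in the cytosol and imported. Some of these proteins descend from bacterial ribosomal proteins and others were added in the mitochondrial lineage, and loss of single subunits is known to impair respiration. Npm1 encodes nucleophosmin, a nucleolar protein that takes part in the assembly of cytosolic ribosomes.

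Between 36550775 and 38147320 counts were assigned to genes in each library, and 3 counts corresponded to 0.0716 to 0.0846 CPM (counts scaled to library depth by the trimmed mean of M-values, TMM). Npm1 was at 142, 380.2 and 381 CPM in wt replicates 1 to 3 and at 441, 499 and 343 CPM in ko replicates 1 to 3. Its transcript was therefore not lower in the libraries labelled ko (log2 difference, ko minus wt, 0.51 ± 0.36 SE, adjusted p = 0.436 by edgeR's quasi-likelihood test; 0.16 without wt replicate 1), and every direction below is that of the labels alone. The wt replicate 1 library stood apart, at -108 on the first principal component of all genes, which held 67.99% of the variance, against -4.54 to 52.0 for the others. The 12 macrophage markers, all with lower estimates in ko and 6 at an unadjusted p under 0.05, summed to 26616, 24889 and 21346 CPM in wt and 17073, 12888 and 21850 CPM in ko. All 6 neutrophil markers likewise had lower estimates (3 at that p), at 1862, 1839 and 2039 CPM in wt and 1572, 822 and 1550 CPM in ko. All 10 fibroblast markers had higher estimates (3 at that p). Their sums, most of each from Col3a1, were 32.7, 491 and 305 CPM in wt and 715, 615 and 369 CPM in ko. The 6 T cell markers in the table also had higher estimates (3 at that p), at 21.4, 31.3 and 92.8 CPM in wt and 83.7, 202 and 73.1 CPM in ko. All 10 proliferation markers did too (2 at that p), at 217, 492 and 431 CPM in wt and 619, 713 and 507 CPM in ko. Of the 7 epithelial markers 4 were tested, 2 with higher and 2 with lower estimates in ko. Krt8 was at 9.90, 117 and 59.1 CPM in wt and 171, 165 and 105 CPM in ko. Cdh1 lay the other way at 24.3, 14.1 and 16.6 CPM in wt and 13.7, 9.43 and 18.2 CPM in ko. Krt19 and Cldn4 had at most 1 count in any library. None of these markers passed the adjusted threshold in edgeR, and wt replicate 1 was the lowest library for the fibroblast, T cell and proliferation sums. The part of these differences in the results that follow was not tested, and in such RNA samples fewer cells of a type and less RNA per cell cannot be told apart.

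Every member was measured well above the floor, the lowest count of any member in any library being 144, and all 78 passed the filter on low counts. Levels of different genes were compared only per length, as the deposited FPKM (fragments counted per kilobase of gene length, scaled to the depth of the library). Mrpl33, the counterpart of bacterial L33, was at 191, 153 and 167 FPKM in wt and 172, 141 and 167 FPKM in ko, the highest of the members. Mrpl52, a mitochondria-specific large-subunit protein, was next at 102, 101 and 87.8 FPKM in wt and 97.6, 93.8 and 103 FPKM in ko. In neither gene did the groups separate, and each library of Mrpl33 lay above each library of Mrpl52. Mrps21 followed with a mean of 48.2 FPKM over the 6 libraries, then Mrps18c with 44.7 FPKM and Mrpl54 with 36.4 FPKM. Mrps21 and Mrps18c did not differ beyond their spread, since Mrps21 ranged from 44.0 to 53.8 FPKM and Mrps18c from 40.5 to 48.1 FPKM.

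The lowest FPKM belonged to Mrpl1, the counterpart of bacterial L1, with 1.11, 1.04 and 1.70 in wt and 1.70, 1.94 and 1.57 in ko. Mrps25, a mitochondria-specific small-subunit protein, had a mean of 1.69 FPKM, Mrpl14 2.65 FPKM, Mrps10 2.74 FPKM and Mrpl17 3.08 FPKM. Mrpl1 and Mrps25 overlapped across the libraries and so had no order beyond their spread. The order of the members ran with the length used for FPKM, as the plot of level against length shows. That length was derived here from the deposited counts, library totals and FPKM. FPKM is divided by it, so a fall of level with length is in part built into the plot. Mrpl33 and Mrpl52 had lengths of 466 and 412 bases, while Mrpl1, Mrps25, Mrpl14, Mrps10 and Mrpl17 had lengths of 4591, 6076, 7525, 5073 and 6712 bases. By mean CPM, Mrpl14 and Mrpl17 were at 20.0 and 20.6, above the members' median of 16.3. Mrpl1, Mrps25 and Mrps10 were below that median, at 6.86, 10.3 and 13.8 CPM. Mean FPKM spanned 109-fold among members, and mean CPM, which is not divided by length, spanned 14.1-fold, from 5.48 CPM for Mrpl47 to 77.6 CPM for Mrpl33. Mrpl4, a conserved large-subunit protein, was at 40.7 CPM but, with a derived length of 8452 bases, at 4.79 FPKM. GENCODE places Mrpl4 at chr9:21002738-21008839, a span shorter than that length. The derived lengths are therefore not always those of the annotated genes, and the order by FPKM depends on them.

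**Figure D1:**
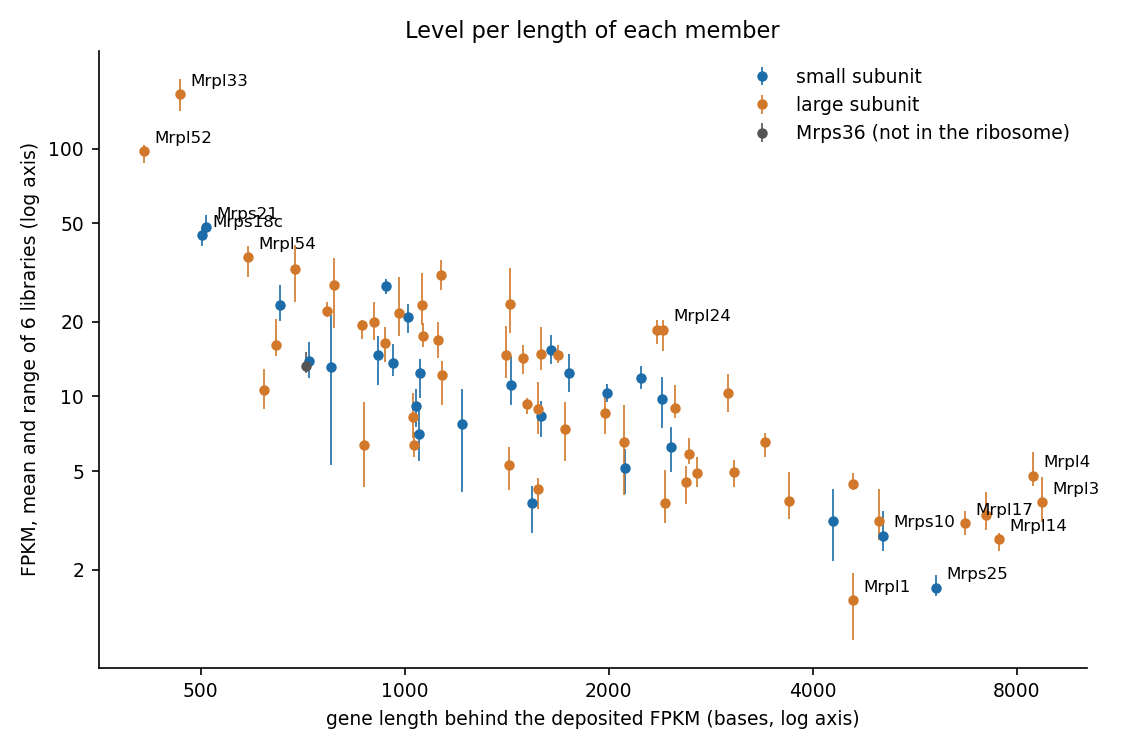
Deposited FPKM of each of the 78 members (vertical log axis; point, mean of 6 libraries; line, lowest to highest library) against the gene length behind it in bases (horizontal log axis), coloured by subunit. Mrpl33 and Mrpl52, with lengths of 466 and 412 bases, stand highest, and Mrpl1 and Mrps25 lie lowest at 1.51 and 1.69 FPKM. The lengths were derived from the deposited counts and FPKM, so the axes are not independent.

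The members lie on 17 chromosomes (GRCm38, GENCODE annotation), with at most 11 on any of them, and 26 overlap another protein-coding gene. A coding gene that starts on the opposite strand up to 1000 bp upstream of the member's start was found for 18 of 78 members (23.1%). The share was 9.999% of the 12271 tested coding genes. Starts on the opposite strand downstream of the member's start were not counted. RefSeq promoters, from 250 bases before to 50 after an annotated start (GRCm38.p6), were held for 69 members and for 10999 tested genes. They were searched on both strands for short motifs of factors known to bind promoters of nuclear genes for mitochondrial proteins. TGCGCA, the core of the site of the factor NRF1, was in 21 members (30.4%) and in 15.1% of tested genes. CCGGAAG, the core bound by ETS factors such as GABPA, was in 26 members (37.7%) and in 19.2% of tested genes. ATGGCGG, a YY1 motif, was in 13 members (18.8%) and in 8.89% of tested genes. GGGCGG, the Sp1 motif, went the other way, in 34 members (49.3%) and in 65.2% of tested genes. CACGTG, the E-box, and TATAAA, the TATA box, were each in 5 members (7.25%), against 11.4% and 9.29% of tested genes. In all, 46 members held at least 1 of the NRF1, ETS and YY1 motifs and 12 held more than 1 of these. The shares are descriptions: a match is not a bound site.

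**Figure D2:**
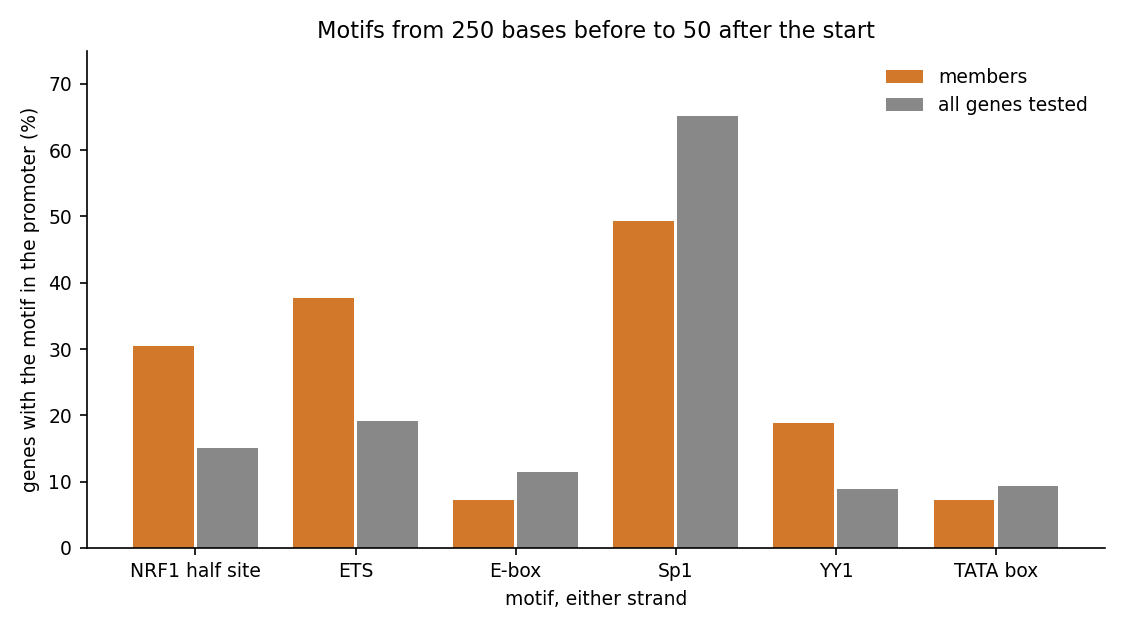
Share of genes (vertical axis, percent) that hold each motif on either strand from 250 bases before to 50 after a RefSeq start, for the 69 members with a promoter entry and the 10999 tested genes with one. NRF1, ETS and YY1 motifs were in 30.4%, 37.7% and 18.8% of members and in 15.1%, 19.2% and 8.89% of tested genes, while Sp1 was in 49.3% and 65.2%.

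The following windows of 30 bases show such a match in members that the results below turn on, with the motif in capitals. Mrps6 (chr16:92058262-92058291, plus strand), Mrpl10 (chr11:97041439-97041468, plus strand) and Mrps18a (chr17:46110950-46110979, plus strand) carry TGCGCA. Mrpl43 (chr19:45006480-45006509, minus strand) and Mrpl3 (chr9:105053238-105053267, plus strand) carry CCGGAAG, and Mrpl52 (chr14:54426851-54426880, plus strand) carries it on the opposite strand, read as CTTCCGG. Distances to the RefSeq start were 62 bases for Mrps6, 131 for Mrpl10, 42 for Mrps18a, 56 for Mrpl43, 19 for Mrpl3 and 47 for Mrpl52. GENCODE starts Mrps6 and Mrpl3 earlier than RefSeq, so these 2 windows overlap the annotated gene there.
Mrps6: gggcgagccgtcTGCGCAgctgccggagcc
Mrpl10: cagctccacgcaTGCGCAtagcggccctat
Mrps18a: ccgcacagcggcTGCGCAcacccctgctcc
Mrpl43: tcgcggtgactCCGGAAGcaaaactctcca
Mrpl3: tgagaaacggaCCGGAAGtggcccggctgt
Mrpl52: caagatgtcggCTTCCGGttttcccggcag

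The comparison of ko with wt asked whether the mitoribosome genes differed between the groups. None of the 78 members passed an adjusted p of 0.05 in edgeR, where 0 of the 13884 genes tested did so (0%). DESeq2 called none of the members either, and 36 of 13699 genes in all (0.263%). The smallest adjusted p of a member was 0.328 in edgeR and 0.157 in DESeq2. At an unadjusted p under 0.05, 3 members were higher in ko (3.85%), against 6.9% of all genes tested, and 0 were lower, against 8.31%. These shares were below the background in both directions, but with upper quartile scaling the share higher was level with the background (7.69% of members and 7.70% of all genes). Estimates were above 0 for 39 members and below 0 for 39, where 52.1% of all genes had an estimate above 0. The median log2 difference was -0.0020 for the members and 0.022 for all genes tested, and single estimates ran from -0.40 for Mrpl43 to 0.83 for Mrps6. The libraries did not overlap between groups for 13 of the 78 members with ko higher, against 1842 of 13884 genes (13.3%). With ko lower this held for 4 of the 78, against 1751 of 13884 genes (12.6%). The first share of members was above that of all genes and the second below it. Without wt replicate 1, the library that stood apart, 0 members passed the adjusted threshold. At an unadjusted p under 0.05, 3 were higher in that fit (3.85%, against 6.81% of all genes) and 0 lower (against 5.38%). The members' median was 0.081 there, and the median of all genes in that fit is not given here.

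The members were also measured more tightly than most genes, but by standard error less tightly than the lists most like them. Their median standard error on the log2 scale was 0.162, ranging from 0.116 to 0.310, against 0.226 over all genes. The 95% interval of the difference lay inside a 2-fold change in either direction for 76 of 78 members (97.4%), against 57.5% of all genes, the exceptions being Mrpl50 (0.23 to 1.01) and Mrps6 (0.11 to 1.56). It lay inside a 1.5-fold change for 51 members (65.4%), against 26.2% of all genes. The cytosolic ribosomal proteins had a median standard error of 0.120, with 94.0% inside 1.5-fold and 96.4% inside 2-fold. For the nuclear genes of the respiratory chain and ATP synthase these values were 0.138, 85.5% and 92.8%. The group means were within 1.1-fold of each other for 42 members, and the share of all genes on that measure is not given here.

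**Figure D3:**
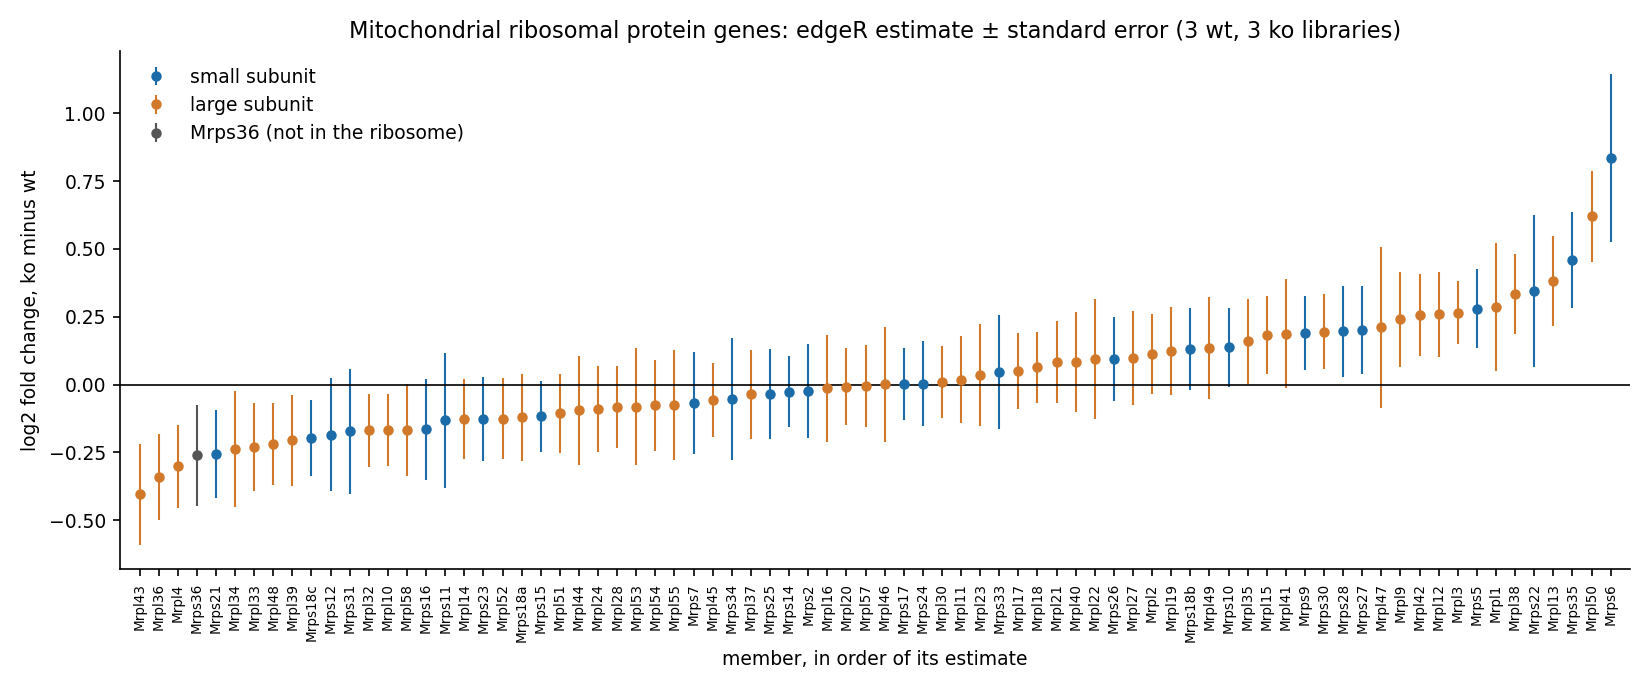
The log2 difference between ko and wt (vertical axis; point, edgeR estimate; line, ± standard error; 3 libraries in each group) for the 78 members in the order of their estimates, coloured by subunit. The estimates run from -0.40 for Mrpl43 to 0.83 for Mrps6, with 39 on each side of 0.

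The estimates of both subunits centred near 0. The 26 small-subunit members divided into 13 above and 13 below 0, with a median log2 difference of -0.010. The 51 large-subunit members divided into 26 above and 25 below 0, with a median of 0.0004. Without wt replicate 1 these medians were 0.11 and 0.076. Among small-subunit members the 16 that the unified nomenclature names after a bacterial protein had a median of -0.025 and the 10 that it names as mitochondrial 0.071. In the large subunit the order was the opposite, with 0.043 for the 30 named after a bacterial protein and -0.057 for the 21 named as mitochondrial. The classes follow the names: Mrps18a and Mrps18b, relatives of bacterial S18, are among those named as mitochondrial. The small subunit took 27.8%, 27.9% and 27.9% of the CPM of both subunits in wt and 28.2%, 28.8% and 28.0% in ko.

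Summed over all members, wt replicates 1 to 3 held 1586, 1465 and 1371 CPM and ko replicates 1 to 3 held 1517, 1442 and 1454 CPM. The ko values lay within the wt range, with means of 1474 ± 107 CPM in wt and 1471 ± 40.5 CPM in ko (SD, n = 3). The ratio of the means, ko over wt, was 0.998, or 1.04 without wt replicate 1. As a plain share of the total count, with no TMM scaling, the ratio was 1.11, with 0.148%, 0.137% and 0.135% in wt and 0.159%, 0.165% and 0.141% in ko. Wt replicate 1 was the highest library for 39 members and wt replicate 3 the lowest for 31. On the first principal component of the members alone, which held 58.1% of their variance, the wt libraries were at -2.38, -0.19 and -0.059 and the ko libraries at 1.06, 1.47 and 0.096. The groups lay on either side of 0 there, with wt replicates 2 and 3 and ko replicate 3 close together and wt replicate 1 far from the rest.

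Of the members with higher estimates in ko, Mrpl50 had the smallest p. It is a mitochondria-specific protein of the large subunit, encoded at chr4:49512596-49521093 on the minus strand, with the start of Zfp189 83 bp away on the other strand. Mrpl50 was at 9.05, 11.9 and 11.3 CPM in wt and at 16.6, 17.02 and 15.8 CPM in ko. All ko libraries were above all wt libraries. The log2 difference was 0.62 ± 0.17 SE (edgeR unadjusted p = 0.0067, adjusted p = 0.328), and the exact permutation test over the 6 libraries gave its smallest possible two-sided p, 0.1.

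Mrps6, the counterpart of bacterial S6, had the largest estimate of the members. It was at 4.44, 8.79 and 8.26 CPM in wt and 14.4, 14.5 and 9.41 CPM in ko. The groups did not overlap, but ko replicate 3 lay close to the wt libraries and wt replicate 1 far below the other wt libraries. The log2 difference was 0.83 ± 0.31 SE (edgeR unadjusted p = 0.029, adjusted p = 0.328), and it was 0.58 without wt replicate 1. The gene, at chr16:92058270-92112227 on the plus strand, contains the gene of the myo-inositol transporter Slc5a3, which was at 3.91, 15.1 and 17.1 CPM in wt and 26.3, 27.9 and 18.0 CPM in ko, with a log2 difference of 1.00 (adjusted p = 0.339). Slc5a3 and Mrps6 shared the low value in wt replicate 1, and how reads in the overlap were assigned is not given in the sources used here.

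Mrps35, a mitochondria-specific small-subunit protein (chr6:147042764-147073991, plus strand), was at 9.95, 12.97 and 10.7 CPM in wt and 16.7, 15.8 and 13.7 CPM in ko. Again no library of a group entered the range of the other (log2 difference 0.46 ± 0.18 SE, edgeR unadjusted p = 0.034, adjusted p = 0.328). Without wt replicate 1 the log2 differences of Mrpl50 and Mrps35 were 0.51 and 0.38. Mrpl13, a conserved protein of the large subunit, was at 15.9, 22.4 and 19.0 CPM in wt and 27.0, 24.1 and 23.6 CPM in ko (log2 difference 0.38 ± 0.17 SE, edgeR adjusted p = 0.329). Its gene overlaps Mtbp, which was at 3.71, 8.54 and 7.75 CPM in wt and 13.8, 11.7 and 9.52 CPM in ko. Mrpl3, also a conserved large-subunit protein, was the tightest of these, at 29.7, 29.1 and 29.0 CPM in wt and 36.1, 36.1 and 33.3 CPM in ko (log2 difference 0.26 ± 0.12 SE, edgeR adjusted p = 0.329).

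Of the members with lower estimates, Mrpl43, a mitochondria-specific large-subunit protein (chr19:45004829-45006442, minus strand), was at 35.7, 27.5 and 22.5 CPM in wt and 22.4, 21.0 and 21.3 CPM in ko. The lowest wt library and the highest ko library nearly met, and the log2 difference was -0.40 ± 0.19 SE (edgeR unadjusted p = 0.064, adjusted p = 0.331). Mrpl43 overlaps Twnk, the gene of the mitochondrial DNA helicase, which lay in the opposite direction at 5.45, 6.48 and 5.67 CPM in wt and 8.78, 9.05 and 6.95 CPM in ko (log2 difference 0.49, adjusted p = 0.328). Mrpl36, the counterpart of bacterial L36, was at 23.3, 18.5 and 18.7 CPM in wt and 17.2, 14.9 and 15.7 CPM in ko. Mrpl4 was at 54.0, 42.1 and 38.6 CPM in wt and 36.2, 35.2 and 37.97 CPM in ko. In both genes wt replicate 1 was the highest library and the groups did not overlap, with log2 differences of -0.34 ± 0.16 SE (adjusted p = 0.331) and -0.30 ± 0.15 SE (adjusted p = 0.347). Without wt replicate 1 the log2 differences were -0.21 for Mrpl43, -0.23 for Mrpl36 and -0.15 for Mrpl4. Mrps21 and Mrpl48 overlapped between groups, with log2 differences of -0.25 and -0.22.

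**Figure D4:**
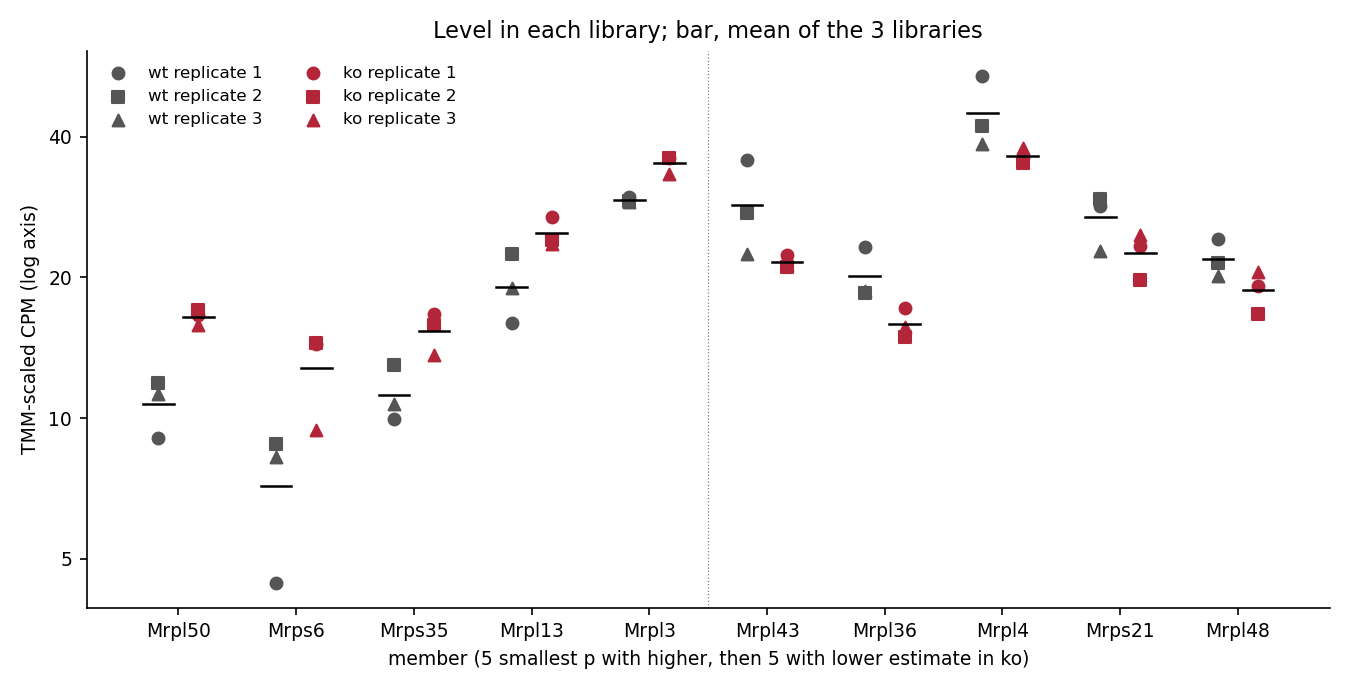
TMM-scaled CPM (vertical log axis) of the 5 members with the smallest p among those higher in ko and the 5 among those lower, with a symbol for each library and a bar for the mean of the 3 libraries of a group. Mrpl50 runs from 9.05 to 11.9 CPM in wt and from 15.8 to 17.02 CPM in ko, while Mrps21 and Mrpl48 overlap between groups.

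Members were further described by their place in the ribosome. Mrpl12 and Mrpl10 form the stalk that recruits translation factors. Mrpl12 was at 19.2, 18.5 and 19.7 CPM in wt and 23.6, 25.9 and 19.2 CPM in ko, and Mrpl10 at 28.4, 26.2 and 24.4 CPM in wt and 22.0, 23.7 and 24.6 CPM in ko. Both overlapped between groups, with estimates of opposite sign (0.26 ± 0.16 SE, adjusted p = 0.387, and -0.17 ± 0.13 SE, adjusted p = 0.477). Mrps12, at the decoding centre, was at 11.95, 9.64 and 8.93 CPM in wt and 7.45, 9.48 and 9.93 CPM in ko, with 1 ko library below the wt range and the others inside it. Mrpl58, a peptidyl-tRNA hydrolase built into the large subunit, was at 19.2, 15.1 and 14.9 CPM in wt and 14.9, 13.2 and 15.6 CPM in ko. Mrpl45, which anchors the ribosome to the inner membrane, and Mrpl44, which has a fold like that of RNase III, had log2 differences of -0.06 and -0.10. Those estimates were under their standard errors of 0.14 and 0.20.

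Mrps18a, Mrps18b and Mrps18c are all related to bacterial S18, of which Mrps18c is the named counterpart, and Mrps18a sits in the large subunit despite its name. Mrps18a was at 18.8, 18.9 and 14.9 CPM in wt and 15.8, 15.2 and 17.4 CPM in ko, and Mrps18c at 25.9, 23.5 and 22.8 CPM in wt and 19.4, 20.4 and 23.2 CPM in ko. Mrps18b was at 13.1, 11.6 and 13.1 CPM in wt and 13.6, 13.2 and 14.6 CPM in ko. Mrps18b was the only one of the 3 with a positive estimate (0.13 ± 0.15 SE), the others being at -0.12 ± 0.16 and -0.20 ± 0.14 SE, and none had an adjusted p under 0.438 in edgeR. Per length the paralogs differed by more than their spread, with Mrps18c at 45.5 ± 2.31 FPKM, Mrps18a at 19.2 ± 1.96 FPKM and Mrps18b at 7.54 ± 0.638 FPKM in wt (SD, n = 3). Mrps30, which also sits in the large subunit, was at 22.7, 22.2 and 20.6 CPM in wt and 26.2, 26.4 and 22.3 CPM in ko, and the lowest ko library lay among the wt libraries. Mrps36, the dehydrogenase subunit, was at 11.6, 10.4 and 9.17 CPM in wt and 8.90, 7.76 and 9.38 CPM in ko, with the groups overlapping (-0.26 ± 0.19 SE, adjusted p = 0.438).

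Within groups the members' median SD of log2 CPM was 0.154, against 0.276 over all genes tested, 0.080 over the cytosolic ribosomal proteins and 0.152 over the nuclear genes of the respiratory chain and ATP synthase. The most variable were Mrps6, Mrps22 and Mrpl47. Mrps22, a mitochondria-specific small-subunit protein, was at 5.37, 9.64 and 9.41 CPM in wt and 11.5, 11.4 and 8.15 CPM in ko, and Mrpl47, the counterpart of bacterial L29, at 4.05, 6.68 and 4.52 CPM in wt and 5.95, 7.23 and 4.46 CPM in ko. Wt replicate 1 was the lowest library for all 3 of these genes, as it was for the sums of the fibroblast and of the proliferation markers. The steadiest members were Mrpl32, Mrpl3 and Mrps10, with SDs of 0.041, 0.049 and 0.057. Mrpl32, the counterpart of bacterial L32, was at 17.9, 18.2 and 17.8 CPM in wt and 15.3, 16.0 and 16.5 CPM in ko. Its groups did not overlap, and its log2 difference was -0.17 ± 0.13 SE (adjusted p = 0.473).

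The rest of the mitochondrial translation machinery was described in the same fit, in which no gene of any list below passed the adjusted threshold. Of the 5 mitoribosome proteins with other symbols, 3 had estimates above 0 and the median was 0.13. Ptcd3, a pentatricopeptide repeat protein of the small subunit, was at 11.9, 18.5 and 23.3 CPM in wt and 31.8, 37.6 and 27.0 CPM in ko, without overlap (0.84 ± 0.26 SE, edgeR unadjusted p = 0.012, adjusted p = 0.328). The 26 assembly and ribosomal RNA modification factors divided evenly, 13 above and 13 below 0, with a median of -0.0080. Fastkd2, an assembly factor for the large subunit, was at 7.03, 7.89 and 8.42 CPM in wt and 12.1, 14.4 and 10.6 CPM in ko. Mpv17l2, another assembly factor, lay the other way at 15.4, 11.6 and 12.5 CPM in wt and 8.93, 8.16 and 11.2 CPM in ko. Of the 17 translation factors 10 were above 0 (median 0.087), and Guf1, a translational GTPase, and Mtrf1l, a release factor, had log2 differences of 0.64 ± 0.23 and 0.79 ± 0.32 SE. Of the 16 tested genes for mitochondrial DNA expression and its regulators 8 were above 0 (median 0.063).

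The 13 protein-coding genes of mitochondrial DNA, which these ribosomes translate, had a median log2 difference of 0.070, with 10 above 0. ATP6 was at 22.2, 28.4 and 25.7 CPM in wt and 44.4, 35.3 and 32.7 CPM in ko, and COX2 at 28.1, 34.8 and 33.8 CPM in wt and 50.6, 42.8 and 38.5 CPM in ko. The ko libraries were above the wt libraries for both genes. The 84 cytosolic ribosomal proteins had 64 estimates above 0 and a median of 0.078, and the 83 tested nuclear genes of the respiratory chain and ATP synthase had 20 above 0 and a median of -0.091. The even division of the mitoribosome members lay between those 2 lists, and the difference between lists was not tested.

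Library by library, the members' median deviation from the 6-library mean was 0.125, -0.0096 and -0.107 in wt and 0.054, 0.0098 and -0.018 in ko, on the log2 CPM scale. The wt libraries spanned the ko libraries on both sides. In wt replicate 1, where the members were highest, the nuclear respiratory genes were at 0.180 and the genes of mitochondrial DNA at -0.276. In wt replicate 3, where the members were lowest, those lists were at -0.097 and -0.067 and the cytosolic ribosomal proteins at -0.111. The 2 wt libraries thus differed from each other by more than the group means did.

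**Figure D5:**
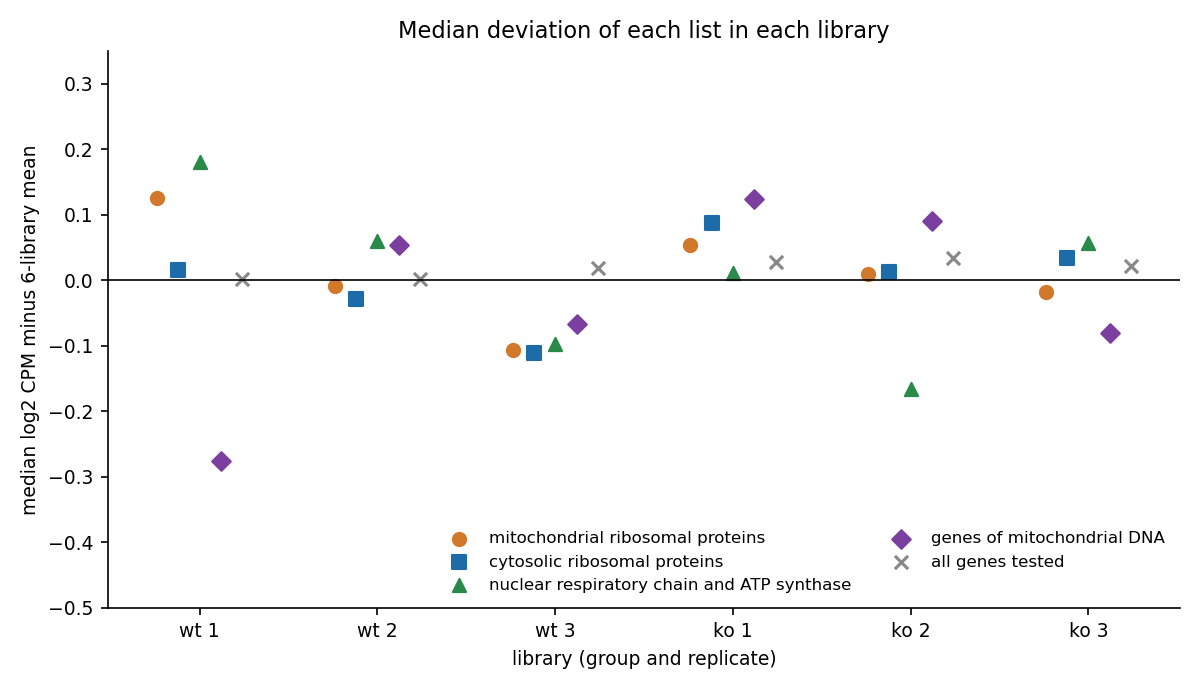
Median over the genes of each list of log2 CPM minus the 6-library mean (vertical axis) in each library (horizontal axis), for the mitochondrial ribosomal proteins, the cytosolic ribosomal proteins, the nuclear respiratory chain and ATP synthase genes, the genes of mitochondrial DNA and all genes tested. The members run from 0.125 in wt replicate 1 to -0.107 in wt replicate 3, with the ko libraries between them.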

How the data were processed

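The deposited table gave raw counts and FPKM per gene and library. The counts and the FPKM were made by the authors on build mm10; the aligner, the counter, the annotation and the strand setting are not given in the sources used here. Counts were fitted over all genes with edgeR 4.0.16 (R 4.3.3; filterByExpr, TMM, glmQLFit, glmQLFTest), with Benjamini-Hochberg adjustment over the 13884 genes tested. DESeq2 1.42.0, and limma 3.58.1 on log2 of the deposited FPKM plus 1 or 0.1, served as alternatives, 15 settings in all. The code was tested on simulated counts. Medians and sums over members were described without a test, and 3 against 3 libraries cannot give a permutation p under 0.1. The depth of each library, 36550775 counts or more, limits counting error only. Replicates differed by more than sampling noise (chi-square per gene 31.1 to 139).

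Genes named in the text were the 5 with the smallest p in each direction, the 5 highest and 5 lowest by FPKM, and the most and least variable 3. Members fixed by role and the 2 with the smallest p in each related list were planned as well. Of the latter, Gadd45gip1, Rpl12, Rpl36a and Ndufa5 (higher estimates in ko) and Esrra and Ndufs7 (lower) are not described above. Npm1, marker genes, and genes that overlap or start beside a member, with that member, were also named. The members and lists were chosen with earlier results of these data known. Positions came from GENCODE M21, promoters from RefSeq. A planned comparison of the Mrps18 protein sequences was not made.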

Additional observations from a re-analysis of the deposited data

How the results depend on the processing

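In edgeR no member passed the adjusted threshold under any scaling, filter or left-out library. Leaving out wt replicate 1 and ko replicate 3 together, DESeq2 called 1 of the 78 members, Mrps6 (0.72, adjusted p = 0.0349). In that fit it called 1283 of 21760 genes with an estimate, a larger share than that of the members. The cause was not tested. The count of members higher at an unadjusted p under 0.05, 3 in the reported fit, was 6 with upper quartile scaling (7.69% of members, 7.70% of all genes), 8 in both limma fits (10.3%, against 15.9% of all genes with 1 added and 14.7% with 0.1 added) and 6 in edgeR without wt replicate 1 and ko replicate 3 (7.69%, against 12.8%). With single libraries left out the count higher was 1 to 4. It was 1 without ko replicate 1 (1.28% of members, against 2.75% of all genes) or ko replicate 2 (1.28%, against 1.81%). It was 4 without wt replicate 2 (5.13%, against 9.79%) or ko replicate 3 (5.13%, against 7.39%). The count lower was 0 to 2, being 2 without wt replicate 3 (2.56%, against 7.996%). In each fit with a single library left out the members' share was below that of all genes in both directions. Limma on FPKM plus 1 moved the median of all genes to 0.092 and the medians of members, small and large subunit to 0.14, 0.13 and 0.14. With 0.1 added they were 0.16 for all genes, then 0.15, 0.14 and 0.16. With libraries left out the members' median ran from -0.081 to 0.10, the small subunit's from -0.099 to 0.11 (0.077 in DESeq2 without wt replicate 1 and ko replicate 3) and the large subunit's from -0.074 to 0.080. The members' share of the total count had a ko over wt ratio of 1.11.

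Members with estimates near 0 changed sign. Under limma plus 1, Mrpl52 was at 0.022, Mrpl54 0.078, Mrps25 0.072, Mrpl14 0.019, Mrpl45 0.083, Mrpl44 0.043 and Mrps18a 0.034. Under limma plus 0.1 the same genes were at 0.022, 0.080, 0.11, 0.026, 0.094, 0.047 and 0.035. Mrps25 was at 8.5e-04 with upper quartile scaling and at 0.0056 without ko replicate 1. Without wt replicate 1, Mrpl54 was at 0.0014 and Mrpl45 at 0.0079, and without ko replicate 3 as well Mrpl45 was at 0.0099. Mrpl17 was at -0.015 without wt replicate 3 and Mrpl44 at 0.0023 without ko replicate 3. The lowest values with a library left out were -0.21 for Mrpl54, -0.10 for Mrps25, -0.12 for Mrpl45 and -0.16 for Mrpl44. Over the left-out libraries Mrpl50 ran from 0.51 to 0.70, Mrps35 from 0.38 to 0.57, Mrps6 from 0.58 to 1.01 and Npm1 from 0.16, without wt replicate 1, to 0.70.

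The labels give both groups replicate numbers 1 to 3. Deviations of same-numbered libraries correlated at -0.241, 0.060 and -0.337, so the numbers were not taken to pair the libraries. With the replicate number as a block, 0 members passed the adjusted threshold. At an unadjusted p under 0.05, 2 were higher in that fit (2.56%, against 5.43% of all genes). The members' median was 0.0050 there and Npm1 was at 0.62.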

Other observations

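The coding genes that start up to 1000 bp upstream of a member's start on the opposite strand formed 17 pairs in which both genes were tested. Their median distance was 81 bp. Member and neighbour had estimates of the same sign in 9 pairs and of opposite sign in 8. The neighbours' log2 differences (ko minus wt) ran from -0.62 for Pnpla7, beside Mrpl41, to 0.93 for Ska3, a spindle and kinetochore component, beside Mrpl57, whose own estimate was -0.0045. Mrpl50 and Zfp189 both had estimates above 0, at 0.62 and 0.77 (edgeR adjusted p = 0.328 and 0.363), while Mrpl51 was at -0.11 and its neighbour Ncapd2, a condensin subunit, at 0.52. None of the neighbours passed the adjusted threshold. Members with and without an ETS motif had median log2 differences of -0.093 and 0.0004, those with and without the NRF1 motif -0.0045 and -0.011, and those with and without the YY1 motif 0.098 and -0.020; these differences were not tested.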
